A study of Mus musculus with 8 samples.

Results

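Central carbon metabolism was followed through 46 genes that encode the glucose and lactate transporters and the enzymes of glycolysis, the pentose phosphate pathway, pyruvate oxidation and the tricarboxylic acid (TCA) cycle. They were picked by name from the textbook pathways and not by their values, though earlier results of these data were known. The values of all annotated transcripts of a gene were summed. The files hold 55486 genes, and all 46 were found among them. RNA sequencing was done on 2 populations sorted from the bone marrow of C57BL/6J mice that either lacked the transcription factor Nfil3 or were littermate controls. Basophils were gated as Lineage- CD34- ckit- CD200R3+ cells with intermediate staining by MAR1, an antibody to the alpha chain of the IgE receptor, and pre-Baso by the same gate with high MAR1 staining. The 4 groups, each of 2 libraries that the series describes as biological duplicates, were Nfil3-deficient basophils, control basophils, Nfil3-deficient pre-Baso and control pre-Baso. Deficient animals are labelled as floxed out and Nfil3-depleted, controls as wild type, and the labels used here give no Cre driver, age or number of animals per library. Nfil3 itself read 0.853 and 1.32 TPM in deficient basophils, against 20.5 and 22.5 TPM in control basophils. In deficient pre-Baso it read 0 and 0.624 TPM, against 6.61 and 7.65 TPM in control pre-Baso. TPM is a length-scaled share of all transcripts in a library. Genes annotated as microRNA took 57.4% to 62.8% of all TPM and protein-coding genes 18.7% to 22.4%. Levels of different genes can be set side by side only roughly. For several members they depend on near-identical copies and on the transcript that reads were assigned to, as given below.

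Glycolysis splits glucose into pyruvate, and either lactate dehydrogenase turns the pyruvate into lactate or pyruvate dehydrogenase passes it into the TCA cycle. The pentose phosphate pathway branches off at glucose phosphate: its oxidative steps make NADPH, which feeds the NADPH oxidase and antioxidant systems of granulocytes, and its non-oxidative steps return sugars to glycolysis. Neutrophils, the best-studied mature granulocytes, are known to rely strongly on glycolysis and to hold few mitochondria, while dividing progenitors also draw on the TCA cycle for biosynthesis. Basophils are short-lived granulocytes that release histamine and cytokines, and pre-Baso are their committed precursors in the bone marrow.

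A gene was tested if it reached a TPM of 1 in at least 2 libraries, which 12511 genes and 42 of the 46 members did. The 4 that did not were Pfkm (muscle phosphofructokinase), Aldoc (brain aldolase), Ldhb (the heart-type lactate dehydrogenase subunit) and Slc16a1 (a proton-linked lactate carrier). Their highest values in any library were 1.07, 0.259, 0.662 and 0.335 TPM, in the order named. Assigned sequence amounted to 272 to 398 megabases per library. Transcripts of the sorted lineage were present in every library. The summed level over 12 basophil genes was 8223 and 12204 TPM in deficient basophils and 6825 and 8903 TPM in control basophils. It was 21800 to 25013 TPM in deficient pre-Baso and 29090 to 36262 TPM in control pre-Baso. Prss34 was the most abundant of the 12, and Mcpt8 was nearly absent in deficient mice. Mcpt8 read 2.73 and 1.98 TPM in deficient basophils against 969 and 1400 TPM in control basophils. In deficient pre-Baso it read 4.08 and 6.04 TPM, against 6244 and 7888 TPM in control pre-Baso. Genotype contrasts here therefore compare libraries that differ in Mcpt8 as well as in Nfil3. Control basophil replicate 1 stood apart by eosinophil transcripts. The sum over 8 eosinophil genes was 2600 TPM there and 33.5 TPM in control basophil replicate 2. It was 176 and 29.8 TPM in deficient basophils, replicate 1 first, and 15.7 to 99.1 TPM in pre-Baso. Prg2, the eosinophil major basic protein, made up 2354 TPM of the sum in control basophil replicate 1. Results between basophils and pre-Baso of control mice are therefore also given without that library.

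Isozyme choice was nearly the same in all libraries for several steps. Ldha, the subunit that favours lactate production, held at least 99.7% of the summed TPM of Ldha and Ldhb in every library. Ldhc, which is not a member, read 5.10 to 10.3 TPM and was left out of this share. Aldoa held 99.9% to 100% of aldolase TPM, and Slc16a3, a lactate exporter of glycolytic cells, held 94.3% to 99.3% of the TPM of the 2 lactate carriers. Slc2a3, a high-affinity glucose transporter, held 68.2% to 79.7% of the TPM of the 2 glucose transporters, with overlapping ranges in basophils and pre-Baso. Pfkp, the platelet-type phosphofructokinase, held 66.5% to 75.6% of its family, and the liver type Pfkl most of the rest. Pfkm, the muscle type, which did not pass the TPM filter, held 1.29% to 4.05% of phosphofructokinase TPM in the 4 basophil libraries. In the 4 pre-Baso libraries it held 4.40% to 5.35%, with no overlap in TPM. On assigned bases, a measure given below, the Pfkm shares of the 2 populations overlapped. Pfkm, Pfkl and Pfkp read 4.39, 27.5 and 98.5 there in control basophil replicate 2. In control pre-Baso replicate 1 they read 3.43, 28.6 and 75.5. Hexokinase traps glucose in the cell. Hk1, the housekeeping form, held 12.2% to 15.0% of hexokinase TPM in the 4 basophil libraries and 20.4% to 23.4% in the 4 pre-Baso libraries, with no overlap. Hk3, a form found in myeloid cells, held 51.7% to 64.2% in basophils and 47.9% to 52.1% in pre-Baso, ranges that overlap. These shares were not tested.

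Pkm, pyruvate kinase, makes its M1 or M2 form by choosing between a pair of mutually exclusive exons of equal length. Both exons are shown because their coverage can be read separately in the files. They lie on GRCm38, 5′ to 3′ on the plus strand, taken from the annotated transcripts in the reference, and capitals mark the 64 of 167 positions at which they differ (61.7% identity).
Pkm M1 exon, chr9:59675029-59675195, plus strand: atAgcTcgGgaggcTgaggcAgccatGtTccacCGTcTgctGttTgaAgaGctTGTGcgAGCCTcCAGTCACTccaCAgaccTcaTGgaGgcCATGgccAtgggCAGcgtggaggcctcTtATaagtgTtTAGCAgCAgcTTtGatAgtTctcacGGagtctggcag
Pkm M2 exon, chr9:59675568-59675734, plus strand: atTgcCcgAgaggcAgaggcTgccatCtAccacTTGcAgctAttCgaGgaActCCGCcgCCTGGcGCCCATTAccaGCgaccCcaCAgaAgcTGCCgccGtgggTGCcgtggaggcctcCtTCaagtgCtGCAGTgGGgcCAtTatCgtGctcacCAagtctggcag
The M2 exon carried 94.1% and 99.2% of the coverage of the 2 exons in deficient basophils, 95.6% and 100% in control basophils, 94.4% and 100% in deficient pre-Baso, and 97.0% and 99.3% in control pre-Baso. Coverage of the M2 exon was 44.4 to 80.8 reads per base and that of the M1 exon 0 to 3.58. No group stood apart, and Pkm as a whole read 115 and 133 TPM in deficient basophils, 124 and 114 TPM in control basophils, 108 and 89.8 TPM in deficient pre-Baso, and 99.1 and 115 TPM in control pre-Baso.

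**Figure D1:**
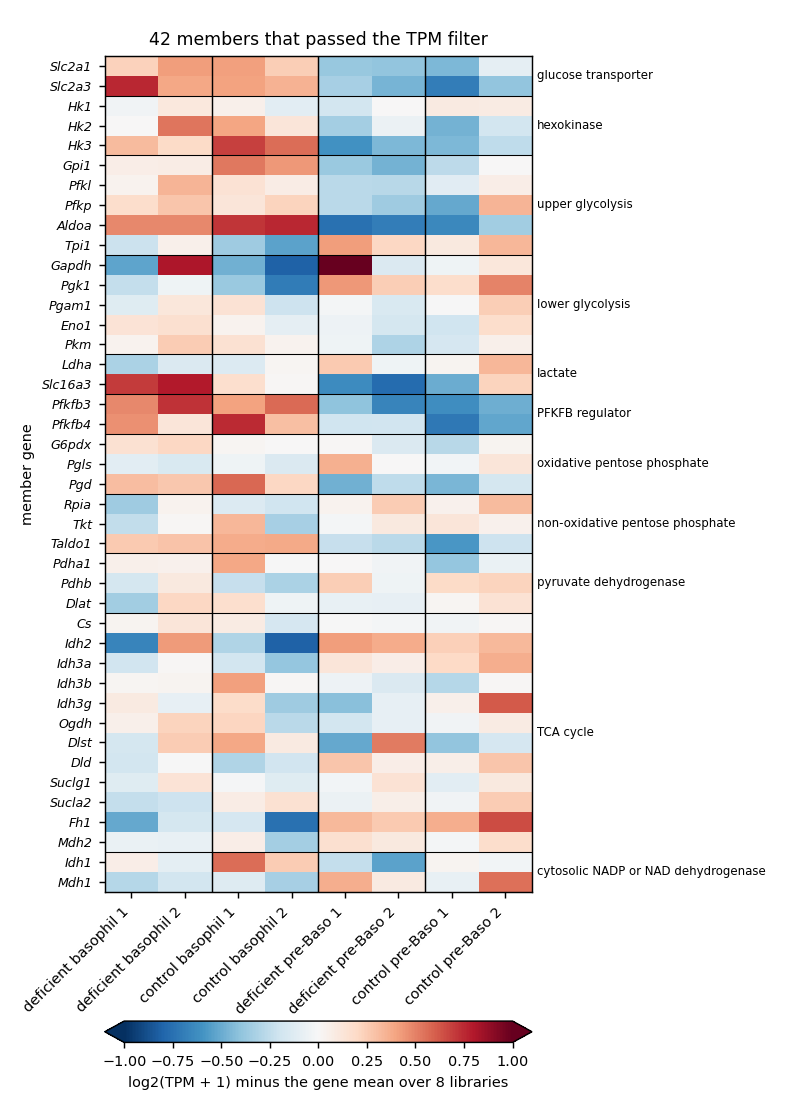
Each row is a member gene and each column a library, and the colour is log2(TPM + 1) minus the gene's mean over the 8 libraries. Aldoa, Hk3, Slc2a3 and Pfkfb3 are above their mean in all 4 basophil libraries, and Fh1 and Pgk1 are above theirs in all 4 pre-Baso libraries.

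Basophils against pre-Baso addresses how the pathway differs between the mature cell and its precursor. A glucose transporter, Hk3, Aldoa, Pfkfb3 and Taldo1 were higher in basophils of both genotypes, while 2 enzymes further along glycolysis and 2 of the TCA cycle were lower in control basophils. In control mice 12 of 42 members were called by limma at an adjusted p under 0.05, 8 higher and 4 lower in basophils, beside 22.6% of all genes tested (12.6% higher and 10.0% lower). In deficient mice 6 of 42 were called, all higher, beside 10.9% of all genes tested (6.79% higher and 4.11% lower). The members' median log2 change was 0.10 in deficient mice and -0.02 in control mice, and the median over all genes tested was 0.10 and 0.08. In both contrasts 5 members were called: Aldoa, Hk3, Pfkfb3, Slc2a3 and Taldo1. The 2 contrasts share no library, but they use the same estimate of each gene's spread and so are not independent tests. How many of all genes were called in both was not counted. The members as a whole took 1.11% to 1.17% of protein-coding TPM in basophils and 0.854% to 0.873% in pre-Baso. Aldoa, Taldo1 and Ldha made up 56.2% to 61.4% of the members' TPM in basophils and 48.8% to 50.3% in pre-Baso. Without these 3 genes the share was 0.450% to 0.489% in basophils and 0.430% to 0.437% in pre-Baso. Fewer cells of a type and less RNA per cell cannot be told apart in these bulk libraries.

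Of the glucose transporters, Slc2a3 was higher in basophils of both genotypes. It read 11.8 and 8.93 TPM in deficient basophils against 5.04 and 4.51 TPM in deficient pre-Baso, and 9.07 and 8.69 TPM in control basophils against 3.71 and 4.79 TPM in control pre-Baso. Every basophil library lay above every pre-Baso library. The log2 change was 0.97 ± 0.19 (SE) in deficient mice (limma adjusted p = 0.0194) and 0.92 ± 0.19 in control mice (limma adjusted p = 0.0115). In both replicate 1 libraries of deficient mice most of the Slc2a3 TPM lay on a coding transcript of 3959 bases, and in the other 6 libraries on a retained-intron transcript of 6253 bases. Slc2a1, the basal glucose transporter, read 3.01 and 3.59 TPM in deficient basophils against 1.64 and 1.61 TPM in deficient pre-Baso, and 3.57 and 3.07 TPM in control basophils against 1.51 and 2.23 TPM in control pre-Baso. It did not overlap between the populations either, but missed the threshold in both genotypes (limma adjusted p = 0.0529 in deficient and 0.0585 in control mice).

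Among the hexokinases Hk3 rose in basophils. Deficient basophils had 38.2 and 35.0 TPM against 19.6 and 22.0 TPM in deficient pre-Baso, and control basophils had 49.6 and 45.2 TPM against 22.0 and 25.3 TPM in control pre-Baso. The log2 change was 0.79 ± 0.15 (limma adjusted p = 0.0189) in deficient and 0.97 ± 0.15 (limma adjusted p = 0.0037) in control mice. Hk2, the insulin-regulated and hypoxia-responsive form, had log2 changes of 0.47 ± 0.23 and 0.58 ± 0.23, and Hk1 of 0.13 ± 0.16 and -0.12 ± 0.16, in deficient and control mice in that order, none of them called. Gpi1, which turns glucose phosphate into fructose phosphate, read 104 and 105 TPM in deficient basophils against 76.8 and 71.5 TPM in deficient pre-Baso. In control mice it read 144 and 135 TPM in basophils against 82.8 and 99.7 TPM in pre-Baso. Its log2 change of 0.61 ± 0.14 in control mice was called (limma adjusted p = 0.0165) and that of 0.49 ± 0.14 in deficient mice was not (limma adjusted p = 0.0588).

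Aldoa, the aldolase that cleaves fructose bisphosphate, showed the highest log2 change of the members in control mice. Deficient basophils had 475 and 476 TPM against 202 and 211 TPM in deficient pre-Baso (475 ± 0.556 and 207 ± 5.88, mean ± SD, n = 2 each). Control basophils had 558 and 573 TPM against 217 and 267 TPM in control pre-Baso (566 ± 10.9 and 242 ± 35.1, mean ± SD, n = 2 each). The log2 change was 1.20 ± 0.13 (limma adjusted p = 0.00469) in deficient and 1.23 ± 0.13 (limma adjusted p = 0.000682) in control mice. Pfkfb3 and Pfkfb4 make the sugar bisphosphate that is the main activator of phosphofructokinase. Pfkfb3 read 6.25 and 7.55 TPM in deficient basophils against 2.92 and 2.29 TPM in deficient pre-Baso, and 5.84 and 6.67 TPM in control basophils against 2.37 and 2.71 TPM in control pre-Baso. Its log2 change was 1.13 ± 0.18 (limma adjusted p = 0.0101) in deficient and 1.04 ± 0.18 (limma adjusted p = 0.00583) in control mice. Pfkfb4 stayed near the filter, with 2.41 and 1.70 TPM in deficient basophils against 1.17 and 1.18 TPM in deficient pre-Baso, and 3.18 and 2.07 TPM in control basophils against 0.515 and 0.737 TPM in control pre-Baso. It was called in control mice (1.14 ± 0.23, limma adjusted p = 0.00959) and not in deficient mice (0.48 ± 0.23, limma adjusted p = 0.209). The phosphofructokinase genes themselves, Pfkl and Pfkp, were not called, with log2 changes of 0.46 ± 0.17 and 0.54 ± 0.25 in deficient and 0.13 ± 0.17 and 0.26 ± 0.25 in control mice.

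**Figure D2:**
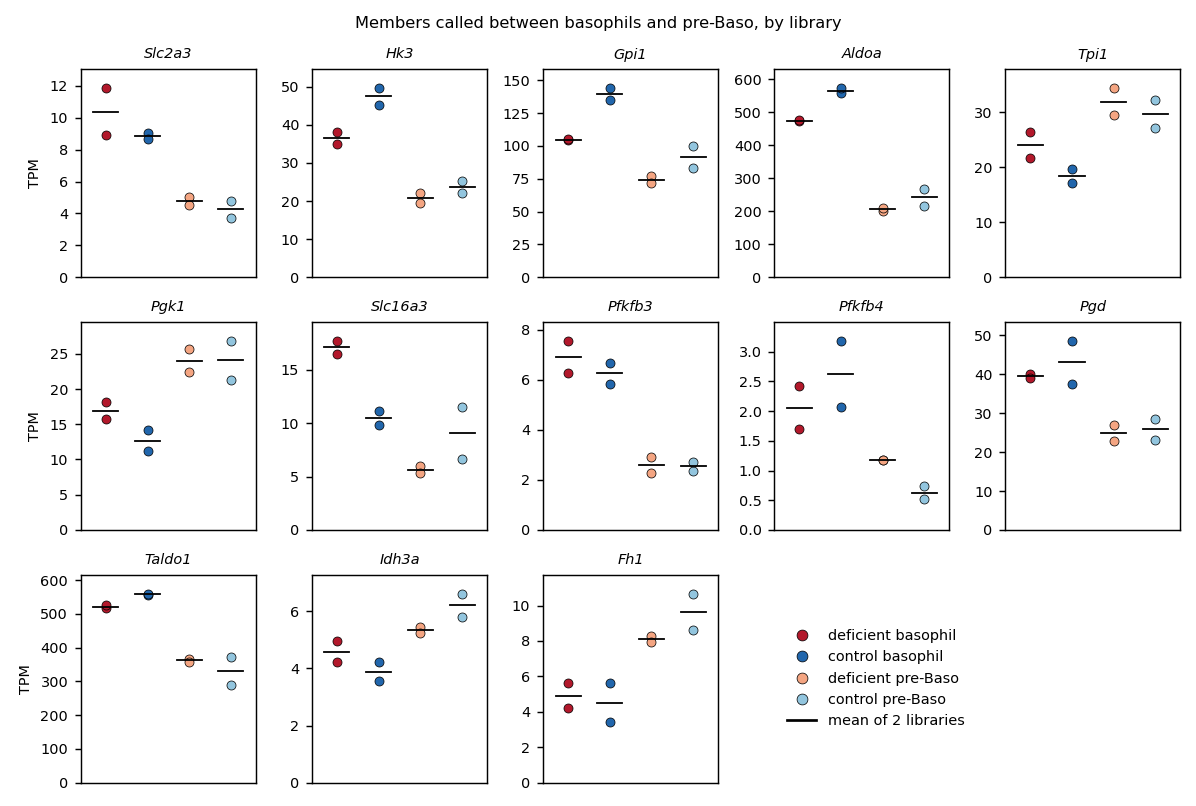
TPM in each library (points) and the mean of the 2 libraries of a group (lines) for the 13 members called between basophils and pre-Baso in either genotype. Every axis starts at 0 and has its own scale. For Aldoa the 4 basophil libraries sit between 475 and 573 TPM, above the 4 pre-Baso libraries at 202 to 267 TPM.

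In the pentose phosphate pathway Taldo1 was higher in basophils of both genotypes and Pgd in those of control mice. Taldo1, transaldolase of the non-oxidative branch, was among the most abundant members. It had 518 and 526 TPM in deficient basophils against 367 and 358 TPM in deficient pre-Baso, and 557 and 561 TPM in control basophils against 289 and 373 TPM in control pre-Baso. The log2 change was 0.52 ± 0.13 (limma adjusted p = 0.0425) in deficient and 0.77 ± 0.13 (limma adjusted p = 0.00585) in control mice. The call in deficient mice was lost under 8 of 17 alternatives. Pgd, phosphogluconate dehydrogenase and the second NADPH-making step, read 40.1 and 39.0 TPM in deficient basophils against 22.9 and 26.9 TPM in deficient pre-Baso, and 48.6 and 37.5 TPM in control basophils against 23.2 and 28.5 TPM in control pre-Baso. It was called in control mice (0.71 ± 0.18, limma adjusted p = 0.0272) and missed the threshold in deficient mice (0.65 ± 0.18, limma adjusted p = 0.058). G6pdx, the rate-setting dehydrogenase at the entry of the pathway, had 6.86 and 7.18 TPM in deficient basophils against 6.15 and 5.42 TPM in deficient pre-Baso, and 6.19 and 6.12 TPM in control basophils against 4.86 and 6.21 TPM in control pre-Baso. Its log2 changes of 0.24 ± 0.17 and 0.14 ± 0.17, in deficient and control mice, were not called. Pgls, Rpia and Tkt, the remaining genes of the pathway on the list, had log2 changes from -0.34 to -0.08 over both genotypes, none of them called.

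Downstream of aldolase, Pgk1 and Tpi1 were lower in control basophils. Pgk1, phosphoglycerate kinase, which makes ATP, read 15.7 and 18.1 TPM in deficient basophils against 25.6 and 22.4 TPM in deficient pre-Baso, and 14.2 and 11.2 TPM in control basophils against 21.3 and 26.8 TPM in control pre-Baso. It fell in control basophils (-0.87 ± 0.19, limma adjusted p = 0.0136), and its log2 change in deficient mice was -0.48 ± 0.19 (limma adjusted p = 0.143). Tpi1, triosephosphate isomerase, had 21.7 and 26.4 TPM in deficient basophils against 34.4 and 29.5 TPM in deficient pre-Baso, and 19.7 and 17.2 TPM in control basophils against 27.2 and 32.3 TPM in control pre-Baso. It was called lower in control mice (-0.66 ± 0.18, limma adjusted p = 0.03) and not in deficient mice (-0.40 ± 0.18, limma adjusted p = 0.186). Eno1 (enolase), Pgam1 (phosphoglycerate mutase) and Pkm had log2 changes from -0.15 to 0.32 over both genotypes, none called. Ldha, among the highest members in pre-Baso, had 216 and 242 TPM in deficient basophils against 322 and 260 TPM in deficient pre-Baso, and 244 and 272 TPM in control basophils against 273 and 337 TPM in control pre-Baso. Its log2 changes were -0.34 ± 0.16 and -0.23 ± 0.16, in deficient and control mice, and neither was called. Tpi1 overlaps Spsb2 on the opposite strand, which read 4.78 to 11.5 TPM, and the counting command names no strand option, so reads of such pairs cannot be told apart.

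Several glycolytic genes have near-identical copies elsewhere in the genome, and 15 members had at least 1 annotated copy with 90% identity over 300 or more aligned bases. Gapdh, the glyceraldehyde phosphate dehydrogenase often used as a reference gene, had 177 such copies and kept only 5.59% to 13.6% of the TPM of gene and copies together. Its own values, 3.36 and 10.0 TPM in deficient basophils, 3.49 and 2.58 TPM in control basophils, 12.4 and 4.68 TPM in deficient pre-Baso, and 5.10 and 5.79 TPM in control pre-Baso, are uncertain for that reason. Gene and copies together read 55.6 and 73.7 TPM in deficient basophils, 58.7 and 46.2 TPM in control basophils, 108 and 81.1 TPM in deficient pre-Baso, and 89.1 and 103 TPM in control pre-Baso. In an alternative chosen after seeing the data, which adds the copies to each member, Gapdh became the 13th member called in control mice (-0.86 ± 0.21, limma adjusted p = 0.0206), and in deficient mice its log2 change was -0.54 ± 0.21 (limma adjusted p = 0.137). The other 12 calls in control mice and the 6 in deficient mice were also made with the copies added, beside 22.5% and 10.9% of all genes. Pgk1, with 4 copies, kept 40.5% to 48.4% of the joint TPM, and its log2 change in control mice was -0.76 ± 0.17 with them (limma adjusted p = 0.0144). The members higher in basophils were less affected: Aldoa kept at least 95.8% and Taldo1 at least 95.9% of the joint TPM.

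**Figure D3:**
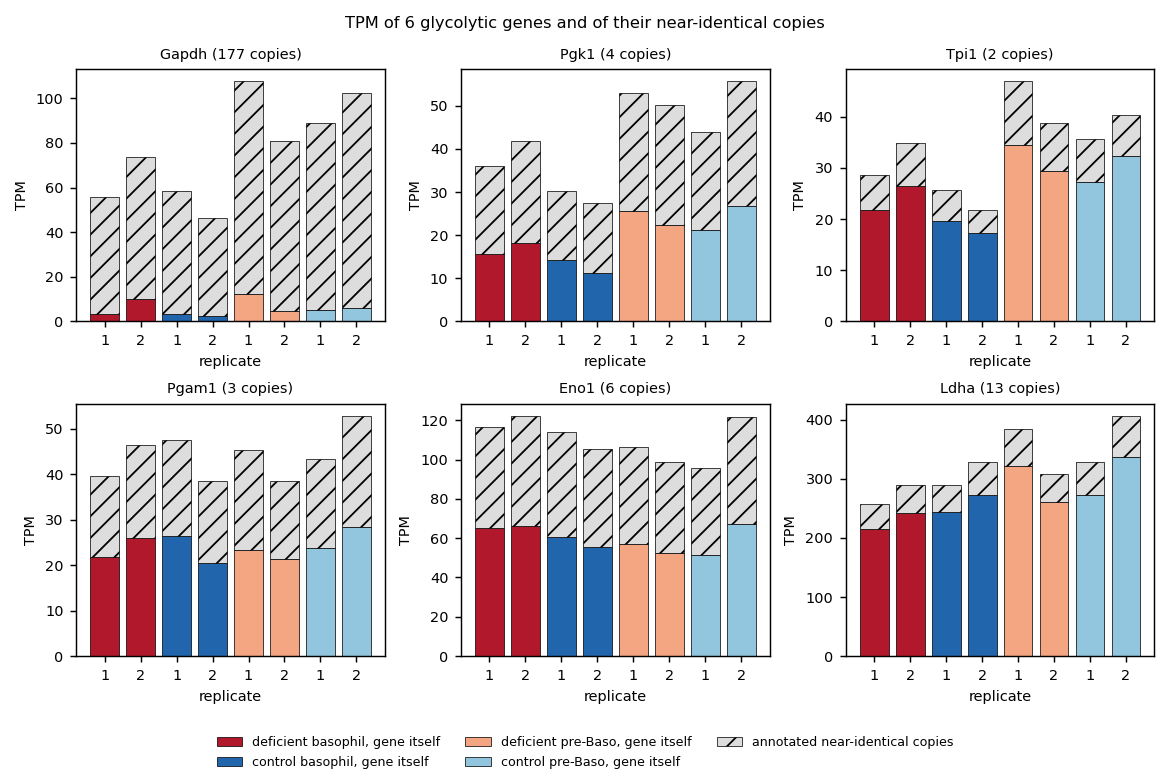
Stacked bars give the TPM of the gene itself (coloured by group) and of its annotated near-identical copies (hatched grey) in each of the 8 libraries, for 6 glycolytic genes. For Gapdh nearly all of the joint TPM lies on the copies, and the joint TPM is 46.2 to 73.7 in basophils and 81.1 to 108 in pre-Baso.

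Of the TCA cycle, 2 of 12 members were called in control mice, both lower in basophils, beside 22.6% of all genes tested (10.0% lower). In deficient mice limma called 0 of 12, beside 10.9% of all genes tested, and 1 of the 12 had an unadjusted p under 0.05, as had 3517 of the 12511 genes tested. Fh1, fumarase, read 4.22 and 5.60 TPM in deficient basophils against 8.30 and 7.94 TPM in deficient pre-Baso, and 5.61 and 3.43 TPM in control basophils against 8.59 and 10.7 TPM in control pre-Baso. No basophil library reached the lowest pre-Baso library. The log2 change was -0.63 ± 0.23 (limma adjusted p = 0.117) in deficient and -0.97 ± 0.23 (limma adjusted p = 0.0194) in control mice. Idh3a, the catalytic subunit of the NAD-dependent isocitrate dehydrogenase, had 4.21 and 4.97 TPM in deficient basophils against 5.45 and 5.23 TPM in deficient pre-Baso, and 4.23 and 3.54 TPM in control basophils against 5.80 and 6.62 TPM in control pre-Baso. Its call in control mice (-0.56 ± 0.17, limma adjusted p = 0.0462) lay at the threshold and was lost under 11 of 17 alternatives. In deficient mice its log2 change was -0.18 ± 0.17 (limma adjusted p = 0.523). Its partner subunits had log2 changes of 0.12 ± 0.18 (Idh3b) and 0.25 ± 0.25 (Idh3g) in deficient and 0.35 ± 0.18 and -0.42 ± 0.25 in control mice. Citrate synthase, Cs, which opens the cycle, kept a narrow range of 9.59 to 11.9 TPM over all 8 libraries. Ogdh, Dlst and Dld of the oxoglutarate dehydrogenase complex, the succinyl-CoA ligase subunits Suclg1 and Sucla2, and the mitochondrial Idh2 and Mdh2 were not called in either genotype. Nor were the pyruvate dehydrogenase genes Pdha1, Pdhb and Dlat, with log2 changes from -0.48 to 0.41, or the cytosolic Idh1 and Mdh1.

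**Figure D4:**
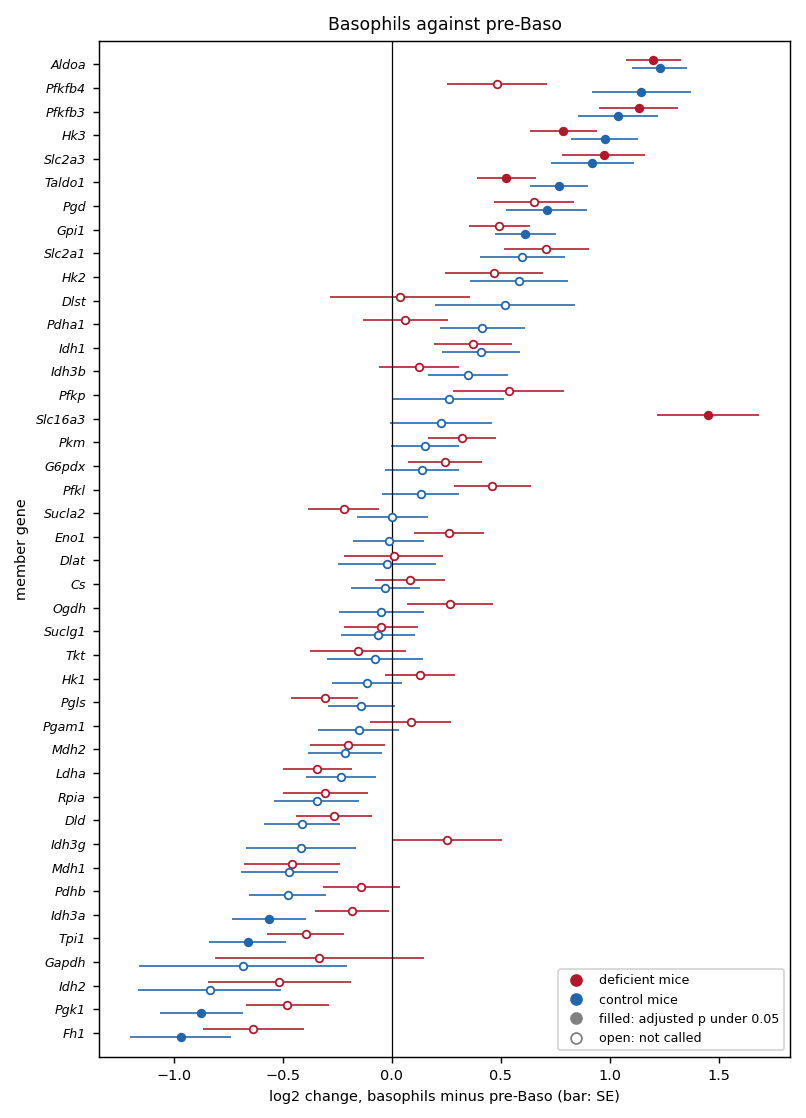
Log2 change of basophils minus pre-Baso (point) with its SE (bar) for the 42 members tested, in deficient mice (red, upper) and control mice (blue, lower). Filled points passed limma at an adjusted p under 0.05. Aldoa, Pfkfb3, Hk3, Slc2a3 and Taldo1 are filled in both genotypes, and Slc16a3 is filled in deficient mice alone.

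Slc16a3 was the only member called in deficient and not in control mice. It read 16.5 and 17.7 TPM in deficient basophils against 5.97 and 5.32 TPM in deficient pre-Baso, and 11.1 and 9.85 TPM in control basophils against 6.65 and 11.5 TPM in control pre-Baso. The groups were apart in deficient mice and overlapped in control mice. The log2 change was 1.45 ± 0.23 in deficient mice (limma adjusted p = 0.0102) and 0.23 ± 0.23 in control mice (limma adjusted p = 0.528). The files place Slc16a3 on different transcripts in different libraries. In deficient basophils most of its TPM lay on coding transcripts of 2386 and 2272 bases, in control basophils on a coding transcript of 4335 bases. In both deficient pre-Baso libraries and in control pre-Baso replicate 1 it lay on the transcript of 4335 bases, and in control pre-Baso replicate 2 on that of 2272 bases. Since TPM divides by length, the same reads give a higher TPM on a shorter transcript. The sequence assigned to the gene as a whole, as a share of all assigned bases scaled to the same total as TPM, does not depend on that choice. It was 69.8 and 72.7 in deficient basophils, 78.4 and 60.4 in control basophils, 38.3 and 37.4 in deficient pre-Baso, and 43.9 and 43.5 in control pre-Baso. On that measure Slc16a3 was higher in basophils of both genotypes, by a log2 of 0.89 ± 0.14 in deficient (limma adjusted p = 0.00577) and 0.64 ± 0.14 in control mice (limma adjusted p = 0.0115).

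Assigned bases in place of TPM, a measure chosen after seeing the data, called 13 of 42 members in deficient mice (11 higher and 2 lower, beside 19.5% of all genes) and 19 of 42 in control mice (12 higher and 7 lower, beside 29.6% of all genes). They held all the members called on TPM, and 11 were called the same way in both genotypes, 10 higher and 1 lower. The number of all genes called in both genotypes on this measure was not counted, so the 11 have no background to be read against. Slc2a1, Gpi1, Pgd, Pfkfb4 and Slc16a3 joined the genes higher in both genotypes. For Slc2a1 the log2 change was 0.91 ± 0.19 (limma adjusted p = 0.0165) in deficient and 0.74 ± 0.19 (limma adjusted p = 0.0229) in control mice. Pgk1 was lower in both, by -0.51 ± 0.15 (limma adjusted p = 0.0488) in deficient and -0.98 ± 0.15 (limma adjusted p = 0.00248) in control mice. On this measure Gapdh was also lower in control mice (-0.86 ± 0.25, limma adjusted p = 0.0361), and Ldha lower in deficient mice (-0.39 ± 0.11, limma adjusted p = 0.0445). Members whose coding transcripts held a median below 50% of their TPM were Slc2a3, Tpi1, Gapdh, Tkt, Idh2, Idh3g and Mdh1, and Ldhb, which was not tested.

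Scaling moved the split of calls. With median-of-ratios scaling, deficient mice had 9 members higher and 3 lower (beside 15.3% of all genes called) and control mice 9 higher and 7 lower (beside 26.2%). Scaling to protein-coding genes gave 9 higher and 0 lower in deficient (beside 15.4%) and 9 higher and 4 lower in control mice (beside 26.7%). Without control basophil replicate 1, the library with eosinophil transcripts, 6 members were called in control mice, beside 13.6% of all genes. These were Aldoa (1.25), Pfkfb3 (1.12), Hk3 (0.91) and Taldo1 (0.77), which were higher, and Fh1 (-1.26) and Pgk1 (-1.04), which were lower, each value being the log2 change without that library. The number called in control mice was also 6 without control pre-Baso replicate 1 (beside 11.2% of all genes). It was 7 without control basophil replicate 2 (beside 15.4%), when no member was called lower. In deficient mice it was 0 without pre-Baso replicate 1, where 20 genes (0.161%) were called in all, 3 without pre-Baso replicate 2 (beside 5.37%) and 2 without basophil replicate 1 (beside 2.06%). With pre-Baso replicate 1 left out, the 6 called members kept log2 changes from 0.54 to 1.52.

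Other lists moved between the same groups, where 10.9% of all genes were called in deficient and 22.6% in control mice. All 28 cell division genes were called lower in control basophils and 24 of 28 in deficient basophils, with summed levels of 156 and 272 TPM in deficient basophils, 94.3 and 97.7 TPM in control basophils, 623 to 663 TPM in deficient pre-Baso and 602 to 811 TPM in control pre-Baso. Of 10 neutrophil genes, 4 were called higher in deficient and 7 in control basophils. Their sum was 2079 and 1271 TPM in deficient basophils and 2353 and 1347 TPM in control basophils, replicate 1 first. It was 832 to 1143 TPM in deficient pre-Baso and 712 to 816 TPM in control pre-Baso. Of 7 monocyte and macrophage genes tested, 1 was called higher in deficient and 4 in control basophils. The list summed to 766 and 361 TPM in deficient basophils, 845 and 321 TPM in control basophils, and 151 to 246 TPM in pre-Baso. In both basophil groups the neutrophil, the monocyte and macrophage, and the eosinophil sums were higher in replicate 1 than in replicate 2. Of 7 erythroid genes tested, 0 were called in deficient mice, where 4 had an unadjusted p under 0.05, and 4 were called higher in control basophils, with sums of 136 to 187 TPM in basophils and 37.7 to 123 TPM in pre-Baso. Eosinophil genes were called in 2 of 7 cases in each genotype, both higher. The mast cell markers Mcpt4, Tpsab1 and Mrgprb2, the natural killer markers Klrb1c, Ncr1 and Gzma, and the plasma cell marker Mzb1 were at 0 in all libraries. The mast cell list summed to at most 3.09 TPM and the B and plasma cell list to at most 20.1 TPM. Jchain, also a plasma cell marker, read 7.06 TPM in control basophil replicate 1 and at most 0.193 TPM in the other libraries. Platelet genes summed to 59.6 to 99.8 TPM over all libraries, with 0 of 3 tested genes called and 0 at an unadjusted p under 0.05. Itga2b alone gave 58.6 to 78.5 TPM of that sum. Pf4 read 30.9 TPM in control pre-Baso replicate 2 and at most 9.78 TPM in the other libraries. The T and NK cell list summed to 53.8 to 76.7 TPM in basophils and 129 to 186 TPM in pre-Baso, nearly all from Nkg7, which was called lower in basophils of both genotypes. The part of these cell types and of cell division in the members' changes was not tested.

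Further enzymes and carriers of the same pathways were taken from a list of 63, of which 36 were tested. In deficient mice 5 were called higher and 2 lower, and in control mice 5 higher and 3 lower. These were 19.4% and 22.2% of those tested, deficient before control, beside 10.9% and 22.6% of all genes. In control mice the share was thus that of all genes. Slc2a6, a lysosomal hexose transporter of the glucose transporter family, read 18.6 and 21.9 TPM in deficient basophils against 7.95 and 8.32 TPM in deficient pre-Baso, and 26.6 and 26.1 TPM in control basophils against 6.64 and 8.29 TPM in control pre-Baso. Its log2 change was 1.22 ± 0.17 (limma adjusted p = 0.0069) in deficient and 1.70 ± 0.17 (limma adjusted p = 0.000618) in control mice. Pdk2 and Pdk3, kinases that switch pyruvate dehydrogenase off, were called higher in both genotypes, with log2 changes of 0.75 ± 0.19 and 0.65 ± 0.16 in deficient and 1.29 ± 0.19 and 0.68 ± 0.16 in control mice. Mpc2, a subunit of the mitochondrial pyruvate carrier, was also higher in both (0.71 ± 0.15 and 0.87 ± 0.15, deficient and control). Mpc1, the other subunit, went the other way without being called in control mice (-0.82 ± 0.26, limma adjusted p = 0.054). It read 17.8 and 17.7 TPM in control basophils against 28.8 and 35.9 TPM in control pre-Baso. In deficient mice it read 21.1 and 25.6 TPM in basophils against 46.8 and 26.2 TPM in pre-Baso. Bsg, basigin, the chaperone that brings lactate carriers to the membrane, and Slc25a10, the mitochondrial dicarboxylate carrier, were lower in both. Bsg had log2 changes of -0.65 ± 0.14 and -0.77 ± 0.14, and Slc25a10 of -0.94 ± 0.19 and -1.03 ± 0.19, deficient before control. Adpgk, an ADP-dependent glucokinase, was called higher in deficient mice (1.28 ± 0.27, limma adjusted p = 0.0257). Pgam2, the muscle phosphoglycerate mutase, was called higher (0.87 ± 0.21, limma adjusted p = 0.0207) and G6pc3, a glucose phosphatase needed by neutrophils, lower (-1.02 ± 0.25, limma adjusted p = 0.0202) in control mice.

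Regulators of glucose use were taken from a list of 34, of which 27 were tested. Every called one was higher in basophils, 6 in deficient and 7 in control mice. These were 22.2% and 25.9% of those tested, deficient before control, beside 10.9% and 22.6% of all genes called (6.79% and 12.6% called higher). Txnip, an arrestin that removes glucose transporters from the membrane and is induced by sugar phosphates, read 260 and 190 TPM in deficient basophils against 73.5 and 72.4 TPM in deficient pre-Baso, and 346 and 324 TPM in control basophils against 79.8 and 93.1 TPM in control pre-Baso. Its log2 change was 1.59 ± 0.17 (limma adjusted p = 0.00469) in deficient and 1.94 ± 0.17 (limma adjusted p = 0.000416) in control mice. Arrdc4, its paralog, had 8.51 and 11.1 TPM in deficient basophils against 1.53 and 2.28 TPM in deficient pre-Baso, and 10.4 and 11.2 TPM in control basophils against 2.22 and 2.64 TPM in control pre-Baso. The log2 change of Arrdc4 was 1.90 ± 0.20 (limma adjusted p = 0.00469) in deficient and 1.79 ± 0.20 (limma adjusted p = 0.000916) in control mice. Myc, a transcription factor that drives many glycolytic genes, rose by 1.07 ± 0.22 in deficient and 0.84 ± 0.22 in control mice, and its partner Max by 0.80 ± 0.17 and 1.54 ± 0.17. Prkab1, a subunit of the energy sensor AMPK, and Nfe2l2, the regulator of antioxidant and NADPH genes, were called higher in both genotypes. Egln2, an oxygen-sensing prolyl hydroxylase, was called higher in control mice (0.55 ± 0.17, limma adjusted p = 0.0463).

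Promoters are shown for the 2 members with the highest log2 changes among those called in both genotypes, Aldoa and Pfkfb3, and for the 2 with the lowest called changes, Fh1 and Pgk1. Each sequence is the 250 bases before the annotated RefSeq start on GRCm38.p6, 5′ to 3′ on the gene's strand, and capitals mark ACGTG or GCGTG on either strand, the core that hypoxia-inducible factors bind.
Aldoa promoter, chr7:126799255-126799504, minus strand: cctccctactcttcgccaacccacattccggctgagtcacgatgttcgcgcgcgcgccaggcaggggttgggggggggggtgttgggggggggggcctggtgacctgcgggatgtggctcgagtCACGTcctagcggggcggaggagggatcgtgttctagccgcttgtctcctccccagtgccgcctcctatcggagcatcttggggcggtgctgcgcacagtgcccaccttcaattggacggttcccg
Pfkfb3 promoter, chr2:11553930-11554179, minus strand: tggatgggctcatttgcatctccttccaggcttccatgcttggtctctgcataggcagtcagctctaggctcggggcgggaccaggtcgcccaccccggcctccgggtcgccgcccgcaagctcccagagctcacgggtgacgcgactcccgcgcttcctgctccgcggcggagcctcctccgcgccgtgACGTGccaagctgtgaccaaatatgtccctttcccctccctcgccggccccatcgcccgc
Fh1 promoter, chr1:175625636-175625885, minus strand: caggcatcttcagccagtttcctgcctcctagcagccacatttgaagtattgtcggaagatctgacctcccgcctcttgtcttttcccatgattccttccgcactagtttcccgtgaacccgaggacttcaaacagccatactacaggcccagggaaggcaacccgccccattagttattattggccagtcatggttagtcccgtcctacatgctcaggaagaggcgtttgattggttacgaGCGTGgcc
Pgk1 promoter, chrX:106186850-106187099, plus strand: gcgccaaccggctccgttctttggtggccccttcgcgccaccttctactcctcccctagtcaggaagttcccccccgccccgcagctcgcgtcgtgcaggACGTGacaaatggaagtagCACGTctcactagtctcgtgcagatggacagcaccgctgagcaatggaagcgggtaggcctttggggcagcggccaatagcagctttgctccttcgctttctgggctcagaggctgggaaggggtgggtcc
The core was present in both members that were higher and in both that were lower. RefSeq promoters were matched for 44 of the 46 members, and 35 of them (79.5%) held the core, beside 38.6% of all 32851 promoters and 44.9% of protein-coding ones. The E-box CACGTG, which contains the core and is read by Myc with Max, was in 2 of 44 (Ldha and Slc16a1), or 4.55%, beside 6.02% of all promoters. The D-box TTATGTAA or TTACGTAA, the kind of site Nfil3 binds, was in 0 of 44 windows, beside 0.931% of all promoters. These are matches of letters in a short window and show no binding. The promoters set beside those of the members were not matched to them for expression or base composition.

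Deficient against control mice asks what loss of Nfil3 did to the pathway within each population. No member passed the threshold: limma called 0 of 42 in basophils, 0 of 42 in pre-Baso, 0 of 42 for the mean over both populations and 0 of 42 for the difference between populations. The share of all genes called was 0.0560%, 0.0639%, 0.0879% and 0%, in the same order. At an unadjusted p under 0.05 there were 4 members in basophils, 2 in pre-Baso, 4 over both and 1 for the difference, where 1065, 548, 931 and 689 of the 12511 genes tested were, in the same order. The members' median log2 difference was 0.05 in basophils and -0.05 in pre-Baso, beside -0.01 and -0.04 over all genes tested. Without control basophil replicate 1 the count in basophils was also 0. Groups of 2 libraries did not overlap for 14 of 42 members in basophils and 16 in pre-Baso, beside 38.6% and 30.5% of all genes.

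**Figure D5:**
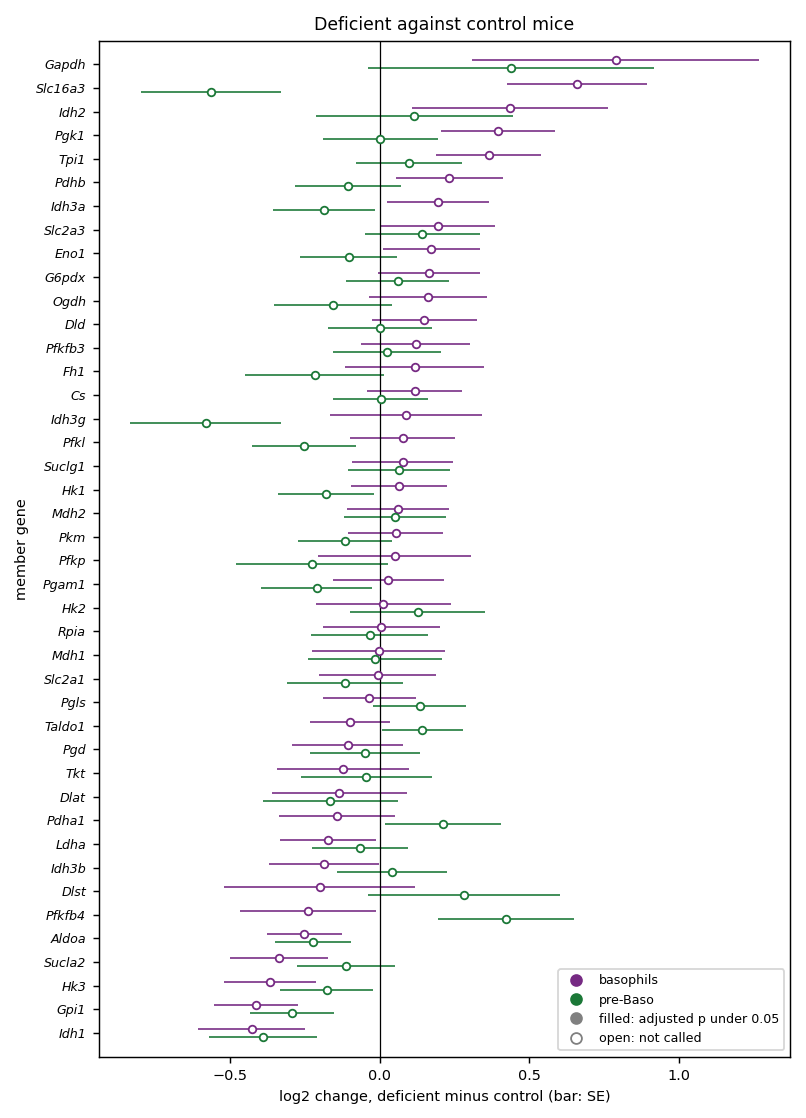
Log2 change of deficient minus control (point) with its SE (bar) for the 42 members, in basophils (purple, upper) and pre-Baso (green, lower). All points are open because none passed limma at an adjusted p under 0.05, and most lie within 0.5 of 0. Slc16a3 lies above 0 in basophils and below 0 in pre-Baso.

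The values with the lowest unadjusted p over both populations were all lower in deficient mice. Gpi1 averaged 105 ± 0.517 TPM in deficient and 140 ± 6.19 TPM in control basophils, and 74.1 ± 3.70 TPM in deficient and 91.3 ± 11.9 TPM in control pre-Baso (SD, n = 2 each). Its log2 difference over both was -0.35 ± 0.10 (limma adjusted p = 0.486). Idh1, the cytosolic isocitrate dehydrogenase that makes NADPH, had 18.4 and 16.3 TPM in deficient basophils against 26.4 and 21.2 TPM in control basophils, and 14.7 and 11.8 TPM in deficient pre-Baso against 18.0 and 17.2 TPM in control pre-Baso. Its log2 difference over both was -0.41 ± 0.13 (limma adjusted p = 0.523). Hk3 and Aldoa differed by -0.27 ± 0.11 (limma adjusted p = 0.654) and -0.24 ± 0.09 (limma adjusted p = 0.609). For these 4 genes the deficient libraries lay below the control libraries of the same population in both populations, and no difference passed the threshold. For Hk3 in pre-Baso the gap was only 22.02 against 22.04 TPM. The 4 were picked by their p, so this separation adds no support. Of all genes, 38.6% did not overlap in basophils and 30.5% in pre-Baso, in either direction.

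Slc16a3 was the only member whose groups stood apart in opposite directions in TPM, 0.66 ± 0.23 in basophils and -0.56 ± 0.23 in pre-Baso (deficient minus control). The difference between these differences was 1.22 ± 0.33 (unadjusted p = 0.00564, limma adjusted p = 0.839). On assigned bases it was 0.25 ± 0.20 (limma adjusted p = 0.851), with 0.05 ± 0.14 in basophils and -0.20 ± 0.14 in pre-Baso. Gapdh had the highest log2 differences, 0.79 ± 0.48 in basophils and 0.44 ± 0.48 in pre-Baso, with the SE that its spread between replicates gives. Cell division genes stood higher in deficient than control basophils for 28 of 28 genes, of which 1 was called. Eosinophil genes stood lower for 7 of 7, of which 0 were called and 2 had an unadjusted p under 0.05. For Prg2, Epx, Prg3, Ear1 and Ear6 the direction rested on control basophil replicate 1. Prg2 read 152 and 18.9 TPM in deficient basophils against 2354 and 19.4 TPM in control basophils, replicate 1 first. Siglecf and Ccr3 were lower in both deficient than in both control basophil libraries. Of the further pathway genes and the regulators, 0 of 36 and 0 of 27 were called in either population.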

How the data were processed

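RNA of 8 libraries (4 groups of 2) was prepared with a SMARTER mRNA kit, per the labels' protocols. Alignment was to mm10 with HISAT2, per the submitters' processing notes (version not given in the sources used here). Annotated transcripts of Ensembl release 101 were quantified by StringTie 2.1.4 with no strand option, per the file headers. The deposited files give TPM and mean coverage per transcript, with no counts, so depth is known only as assigned bases and no counting interval is given. Gene sums of TPM were tested as log2(TPM + 1), on which a low gene's change is understated.

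limma 3.58.1 (R 4.3.3) fitted 1 mean per group over 8 libraries with a variance trend, on genes that reached a TPM of 1 in 2 or more libraries, and p-values were adjusted by Benjamini-Hochberg over all 12511 genes within each contrast. The test was two-sided, with calls made below an adjusted p of 0.05. Nothing beyond the term biological duplicates says how duplicates were taken, so p-values measure only the spread between these libraries. The fit was tested on simulated data. Copies were searched with blastn 2.17.0. Alternatives were other scalings, pseudocount, filter, transcript length, groups fitted, a replicate block, each library left out, copies added and assigned bases (coverage times length), the last 2 chosen after seeing the data. Members and lists were chosen with earlier results of these data known. Every member could be named, and other pathway genes and regulators only where called, apart from Ldhc and Mpc1.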

Additional observations from a re-analysis of the deposited data

Results flagged for a closer look

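Slc16a3, the lactate exporter, moved in opposite directions between genotypes in the 2 populations when read as TPM. Both deficient basophil libraries lay above both control basophil libraries, and both deficient pre-Baso libraries lay below both control pre-Baso libraries. The log2 genotype difference in basophils minus that in pre-Baso was 1.22 ± 0.33 (SE), and limma's test of that difference gave an adjusted p of 0.839. It ranged from 0.25 to 1.58 over 16 alternatives, with the lowest value on assigned bases.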

How the results depend on the processing

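All 18 member calls between basophils and pre-Baso kept their sign in every alternative that gave a value, up to 17 each, and Aldoa and Hk3 were called in control mice in all of them. The number of members called changed more. With no filter on low values, 1 was called in deficient and 2 in control mice, where 160 and 558 of 55486 genes were called. Median-of-ratios scaling called 12 in deficient mice (15.3% of all genes), and assigned bases called 13 in deficient (19.5%) and 19 in control mice (29.6%). Leaving out each library in turn gave 0 to 7 members in deficient and 6 to 12 in control mice, beside 0.161% to 11.2% and 11.2% to 22.1% of all genes. The cause of these shifts was not tested, beyond the larger number of genes tested without a filter and the fewer libraries. A lone library left in a group was assumed to vary like the others. The correlation of same-numbered libraries' deviations ran from -0.05 to 0.20 over the group pairs, so the numbers were not taken as pairs. With a replicate block, 5 members were called in deficient mice (Taldo1 lost), beside 10.3% of all genes, and 11 in control mice (Idh3a lost), beside 22.2%. The replicate block gave 0 calls between genotypes, as did every other alternative tried. No scaling moved the median change of all genes by more than 0.10 on the log2 scale. The Hk3 and Pfkp shares were 55.0% and 72.9%, as means over all libraries, with transcripts of at least 500 bases, against 55.1% and 72.5% with all transcripts. Pkm M2 shares from transcript TPM were 97.4% to 100%. With 2 libraries a group, no member passed the threshold between genotypes, and this does not show that the values were equal.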
